A study of Mus musculus with 6 samples.

Results

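The genes described here code for the metalloproteinases that cut the extracellular matrix and cell-surface proteins, and for their inhibitors. They are all genes whose symbol on the array platform begins with Mmp, Adam, Adamts, Adamtsl or Timp followed by a digit, leaving out 1 MMP gene. A total of 67 of the 17720 measured genes met this rule, each read by the probe set (a group of short probes for 1 transcript) with the highest mean over the 6 arrays. The RNA came from mouse adipocytes in 3 groups of 2 arrays. Bone marrow-derived adipocytes were sorted out of gonadal fat by a marker that only the transplanted marrow carried, green fluorescent protein (GFP, replicate 1) or beta-galactosidase (LacZ, replicate 2). Gonadal white adipocytes and intrascapular brown adipocytes were the other groups, and cells of all groups were freed with collagenase, itself a matrix protease. About 5000 cells were collected per sort, and an array holds the pool of 6 or more sorts. The labels used here do not give age, strain or sex, and they name the samples biological replicates without saying that they came from separate animals, so the p-values measure only the spread between these samples.

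Matrix metalloproteinases (MMPs) are zinc enzymes, secreted or tied to the membrane, that are made as inactive precursors and degrade collagens and other matrix proteins. ADAMs are membrane proteins, many of which release the outer parts of growth factors and receptors, while the secreted ADAMTS enzymes cut proteoglycans and trim procollagens, and the ADAMTS-like proteins lack the catalytic domain. The tissue inhibitors of metalloproteinases (TIMPs) bind the active enzymes. In fat these proteins act while the tissue expands, when the matrix around growing adipocytes and vessels is rebuilt.

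Values are log2 expression values, which ran from 1.67 to 13.97 over the arrays, with array medians from 5.46 to 5.72. A difference of 1 is a 2-fold difference, a value after ± beside a difference is limma's standard error with 2 arrays per group, and a gene is called when limma's p, adjusted over all 17720 genes, is under 0.05. Markers of other cell types were read on the arrays at unequal levels. The mean over 12 macrophage and monocyte markers was 11.3 for the GFP and 8.55 for the LacZ sample, 11.4 and 9.75 on the white arrays and 8.79 and 7.97 on the brown arrays. The 12 endothelial markers averaged 11.6 and 12.1 on the marrow-derived arrays, 8.55 and 7.47 on the white arrays and 11.1 and 10.6 on the brown arrays. The 10 fibroblast and progenitor markers averaged 10.003 and 9.78, 9.18 and 8.03, and 7.67 and 7.02 in the same order. The 8 smooth muscle and pericyte markers averaged 9.50 and 10.12, 8.17 and 8.08, and 8.43 and 8.26, with 5 called higher in marrow-derived than in white and 4 than in brown. The 6 mesothelial markers averaged 8.08 and 6.07, 7.11 and 7.16, and 3.85 and 4.15, and the 9 adipocyte markers 12.0 and 11.4, 12.8 and 12.9, and 12.5 and 12.6. In such samples fewer cells of a type and less RNA per cell cannot be told apart. Whether these markers came from other cells or from the sorted adipocytes, and their part in the results, was not tested.

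Of the 67 genes 26 passed the test in at least 1 comparison. In bone marrow-derived adipocytes 10 exceeded their level in white adipocytes and 5 were lower, 14 exceeded their level in brown adipocytes and 4 were lower, and white adipocytes had 6 higher and 4 lower than brown. These are 22.4%, 26.9% and 14.9% of the 67, beside 25.8%, 20.4% and 9.21% called among all genes, so against white the family was called no more often than genes in general. Called higher and called lower were 12.2% and 13.6% of all genes for marrow-derived against white, 8.71% and 11.7% for marrow-derived against brown, and 3.87% and 5.34% for white against brown. The median difference of the 67 genes was -0.02, 0.27 and 0.14 in the 3 comparisons, beside -0.07, 0.02 and 0.02 over all genes. Both marrow-derived arrays lay above the other 4 arrays for 19 of the 67 genes (28.4%, beside 21% of all genes) and below them for 14 (20.9%, beside 23.8%). Both white arrays lay above the other 4 for 10 (14.9%, beside 17%) and below for 5 (7.46%, beside 14.6%). Both brown arrays lay below the other 4 for 12 (17.9%, beside 14%) and above for 5 (7.46%, beside 14.3%). Between marrow-derived and white the arrays did not overlap for 20 genes higher and 22 lower (28.5% and 35.8% of all genes), between marrow-derived and brown for 27 and 14 (33% and 32%), and between white and brown for 27 and 13 (32.4% and 29.7%). With each array centred on its median, the median of all genes shifted by -0.17 against white and by -0.19 against brown. The calls became 10 higher and 7 lower against white and 12 higher and 6 lower against brown. Over all genes 26.0% and 19.9% were then called in these comparisons.

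The counts fell most when a brown array was left out. A group left with 1 array is then assumed to vary like the other groups, and the brown pair, whose arrays differed least, no longer adds to the estimate of the spread. Without brown replicate 1 the comparison of marrow-derived with brown called 3 of the 67 genes higher and 1 lower, and without brown replicate 2 it called 2 and 2, while over all genes the calls fell to 121 higher and 355 lower and to 61 and 239. White against brown called 0 of the 67 without either brown array, where 7 and 5 of all genes were called and 15 of the 67 had an unadjusted limma p under 0.05 in each fit. Without white replicate 1 it called 3 higher and 1 lower, and without white replicate 2 it called 3 and 0. Marrow-derived against white called 7 to 12 higher and 3 to 4 lower with 1 array left out, the fewest (7 and 3) without white replicate 2 or either brown array, and an ordinary linear model, with no sharing of the spread between genes, called 0 there, where 17 of the 67 had an unadjusted p under 0.05. In the comparison with white 8 of the 15 calls passed in all 6 fits that left out 1 array, namely Adamts4, Adamts5, Adamts9, Adamts12, Adamts15, Mmp17, Mmp19 and Timp3. Against brown 3 of 18 did so, Adamts4, Adamts15 and Adamts19, and between white and brown 0 of 10.

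**Figure D1:**
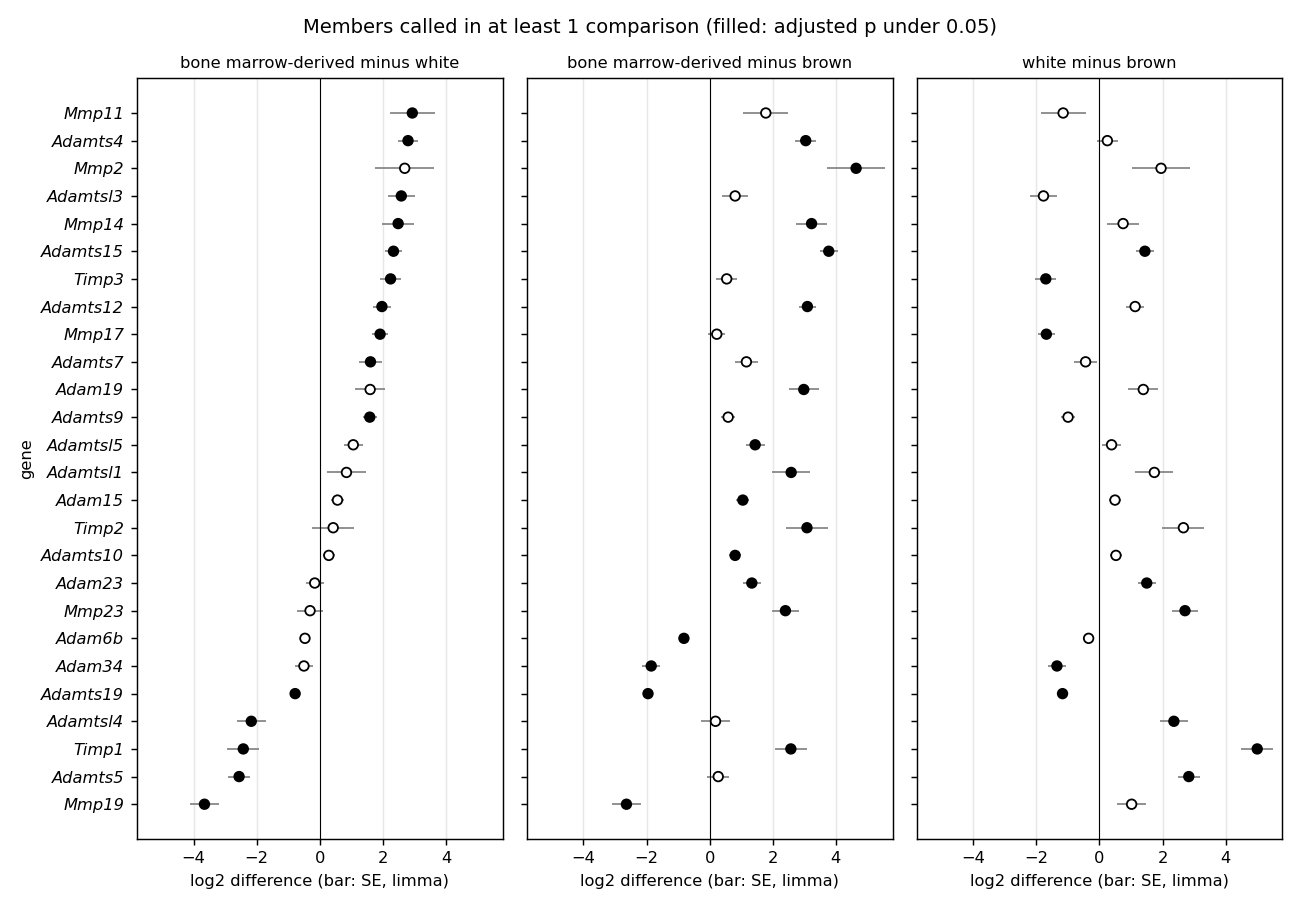
Log2 differences of the 26 genes called in at least 1 comparison, 1 gene per row and 1 panel per comparison; bars are limma's standard errors and filled points have an adjusted p under 0.05. The called differences from white run from -3.66 for Mmp19 to 2.93 for Mmp11, and those from brown reach 4.64 for Mmp2.

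Of the 4 TIMPs, Timp1 was highest in white adipocytes, Timp3 was lowest there, Timp2 was called only against brown, and Timp4 was not called. Timp1, the inducible inhibitor that rises in inflamed and obese fat, had log2 values of 6.42 and 7.09 on the GFP and LacZ arrays, 8.67 and 9.69 on the white arrays and 4.67 and 3.69 on the brown arrays. The groups did not overlap, with white highest and brown lowest. Timp1 was 32.0-fold higher in white than in brown adipocytes (log2 difference 5.00 ± 0.50, adjusted p = 0.0105), the largest difference of the 67 genes in that comparison. Bone marrow-derived adipocytes stood between them, 5.38-fold below white (-2.43 ± 0.50, adjusted p = 0.0234) and 5.95-fold above brown (2.57 ± 0.50, adjusted p = 0.0249). The call against white was lost without the GFP array (-2.09) or white replicate 2 (-1.92), and the call against brown without LacZ (2.24), brown replicate 1 (3.07) or brown replicate 2 (2.08). White against brown lost its call without either brown array (5.49 and 4.51).

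Timp3, which binds to the matrix itself and also blocks ADAM17 and the aggrecan-cutting ADAMTS enzymes, stood at 12.26 and 12.44 in bone marrow-derived, 10.56 and 9.66 in white and 11.99 and 11.63 in brown adipocytes. White adipocytes were the low group and no groups overlapped. Timp3 was 4.73-fold higher in marrow-derived than in white (2.24 ± 0.34, adjusted p = 0.0104) and 3.25-fold lower in white than in brown (-1.70 ± 0.34, adjusted p = 0.0407), while its difference from brown was 0.54 ± 0.34 (adjusted p = 0.309). Its 3 other probe sets gave 2.66 to 3.25 against white and 0.97, 1.40 and 1.80 against brown. The limma p-values against brown, adjusted over all probe sets, were 0.13, 0.039 and 0.020 in that order. The white to brown call was lost without white replicate 2 (-1.25), brown replicate 1 (-1.53) or brown replicate 2 (-1.88). The endothelial markers have the same order of groups, with all 12 called higher in marrow-derived than in white and 10 of 12 called lower in white than in brown. Over all genes 12.2% and 5.34% were called so. The smooth muscle and pericyte markers have this order too, with 5 of 8 called higher in marrow-derived than in white. Between white and brown 2 of these 8 were called lower and 1 higher. A link of Timp3 to either list was not tested.

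Timp2, the inhibitor that also helps MMP14 activate MMP2, had 12.11 and 11.02 in bone marrow-derived, 11.94 and 10.35 in white and 8.92 and 8.04 in brown adipocytes. Marrow-derived and white arrays overlapped, and both brown arrays were the lowest. It was 8.48-fold higher in marrow-derived than in brown (3.08 ± 0.66, adjusted p = 0.0318), a call that was lost without the GFP array (2.54) or either brown array (3.52 and 2.65). White and brown differed by 2.66 ± 0.66 (adjusted p = 0.0713). In each of the 3 groups the array with the higher Timp2 value also had the higher macrophage markers and the higher fibroblast and progenitor markers. Timp4, the inhibitor typical of adipocytes and heart, read 12.40 and 12.57, 12.38 and 12.63, and 12.02 and 11.62, with both brown arrays lowest. Its differences did not pass, at -0.02 ± 0.21 from white (adjusted p = 0.952) and 0.66 ± 0.21 from brown (adjusted p = 0.0874). White and brown differed by 0.69 ± 0.21 (adjusted p = 0.119). Its second probe set gave larger differences from brown, 1.01 for marrow-derived and 1.16 for white. Their limma p-values adjusted over all probe sets, 0.0502 and 0.057, did not pass either.

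**Figure D2:**
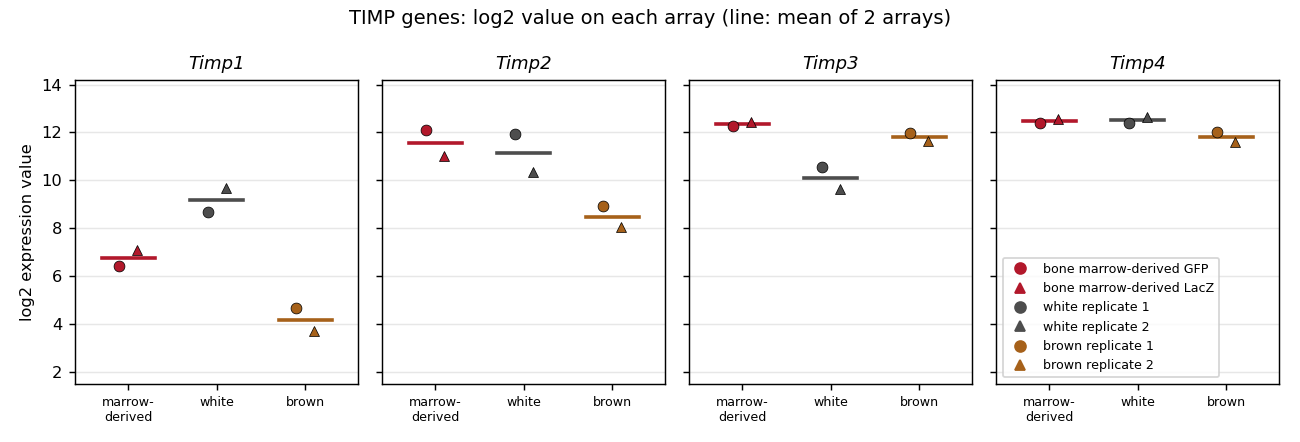
Log2 expression values of the 4 TIMP genes, 1 panel per gene, with 1 point per array and a line at each group's mean of 2 arrays. Timp1 is highest in white and lowest in brown arrays, Timp3 is lowest in white, Timp2 is lowest in brown, and Timp4 stays between 11.62 and 12.63.

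Timp1 and Timp3, which were called in opposite directions both against white and between white and brown, are shown by the 250 bases before their annotated start sites, from RefSeq (GRCm38.p6). They lie at chrX:20869916-20870165 and chr10:86300162-86300411, both on the plus strand and written 5′ to 3′. Capitals mark the GC box, GGGCGG on either strand, a common element of promoters without a TATA box.
Timp1: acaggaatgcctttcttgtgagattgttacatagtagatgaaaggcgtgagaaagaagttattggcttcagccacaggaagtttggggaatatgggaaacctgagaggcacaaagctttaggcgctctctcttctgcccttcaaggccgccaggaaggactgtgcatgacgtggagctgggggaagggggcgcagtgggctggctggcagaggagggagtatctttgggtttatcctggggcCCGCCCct
Timp3: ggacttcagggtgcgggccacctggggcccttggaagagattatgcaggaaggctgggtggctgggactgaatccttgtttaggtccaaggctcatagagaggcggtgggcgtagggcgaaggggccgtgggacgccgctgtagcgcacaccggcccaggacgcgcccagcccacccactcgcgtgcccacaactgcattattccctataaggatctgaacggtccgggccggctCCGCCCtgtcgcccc
Each window holds 1 GC box, which begins 8 bases before the start in Timp1 and 15 bases before it in Timp3, so this motif does not set the pair apart.

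Among the MMPs, the cell-surface collagenase and its gelatinase partner had their highest values in bone marrow-derived adipocytes. Mmp14, the membrane-tied MMP that cuts fibrillar collagen and activates MMP2, stood at 7.94 and 8.04 in marrow-derived, 6.22 and 4.80 in white and 5.06 and 4.46 in brown adipocytes. Both marrow-derived arrays lay above all others. The difference was 5.59-fold against white (2.48 ± 0.50, adjusted p = 0.0213) and 9.39-fold against brown (3.23 ± 0.50, adjusted p = 0.014). The call against white was lost without GFP (2.53), without LacZ (2.43) or without a brown array (2.48 each), and that against brown without either brown array (3.53 and 2.93), with the size of the difference little changed. Its 2 other probe sets gave smaller differences, 1.72 and 0.81 from white and 1.89 and 1.04 from brown.

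Mmp2, the gelatinase that degrades basement membrane collagen, had values of 9.51 and 9.64 in marrow-derived, 8.15 and 5.61 in white and 5.72 and 4.13 in brown adipocytes. The marrow-derived pair was highest and tight, and the white and brown arrays overlapped. Mmp2 was 25-fold higher than in brown (4.64 ± 0.93, adjusted p = 0.0268), the largest difference of the 67 genes against brown, and its difference from white did not pass (2.69 ± 0.93, adjusted p = 0.0923). The call against brown was lost without GFP (4.71), LacZ (4.58), brown replicate 1 (5.44) or brown replicate 2 (3.85). The 5 called fibroblast and progenitor markers, of 10, were also higher than in brown. So were 4 of 6 mesothelial, 4 of 8 smooth muscle and pericyte and 1 of 12 endothelial markers, beside 8.71% of all genes. Of the macrophage and monocyte markers 0 of 12 were called. A link of Mmp2 to these markers was not tested.

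The other gelatinase, Mmp9, which neutrophils and macrophages release, was set apart by 1 array. Its values were 11.24 for the GFP sample, 6.96 for the LacZ sample, 8.0 and 7.74 on the white arrays and 5.91 and 7.05 on the brown arrays. The GFP array stood alone, and the LacZ array fell below both white arrays. The differences were 1.23 ± 1.37 from white (adjusted p = 0.571) and 2.62 ± 1.37 from brown (adjusted p = 0.235). Without the GFP array the difference from white turned to -0.91, and without the LacZ array it was 3.37.

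Mmp19, an MMP of the basement membrane and vessels, went the other way. Its values were 8.13 and 7.16 in marrow-derived, 11.57 and 11.04 in white and 9.85 and 10.72 in brown adipocytes, so both marrow-derived arrays lay below all others. It was 12.6-fold lower than in white (-3.66 ± 0.46, adjusted p = 0.00717), the largest difference of the 67 genes against white, and 6.22-fold lower than in brown (-2.64 ± 0.46, adjusted p = 0.0187). Its second probe set gave -2.92 and -1.90. The call against brown was lost without brown replicate 1 (-3.08) or brown replicate 2 (-2.20).

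Mmp11, stromelysin-3, which cleaves protease inhibitors and collagen VI rather than fibrillar collagen, had 8.50 and 9.87, 6.83 and 5.68, and 8.11 and 6.70 in the marrow-derived, white and brown arrays. It was 7.63-fold higher in marrow-derived than in white (2.93 ± 0.71, adjusted p = 0.0361), and 1.78 ± 0.71 above brown (adjusted p = 0.142). The call held without the GFP array and was lost when any other single array was left out, with differences from 2.25 without LacZ to 3.51 without white replicate 1. Mmp17, a membrane MMP on a lipid anchor, stood at 6.33 and 6.35, 4.29 and 4.57, and 6.44 and 5.78. White was the low group, 3.76-fold below marrow-derived (1.91 ± 0.26, adjusted p = 0.00879) and 3.21-fold below brown (-1.68 ± 0.26, adjusted p = 0.0236), and the latter call was lost without any one white or brown array (-1.35 to -2.01).

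Mmp23, a short membrane MMP without the usual hemopexin domain, was the MMP that set the gonadal cells apart from brown. It read 8.82 and 8.09 in marrow-derived, 9.30 and 8.23 in white and only 6.04 and 6.06 in brown adipocytes, so the brown arrays lay below all others. The differences from brown were 2.40 ± 0.42 for marrow-derived (adjusted p = 0.0194) and 2.71 ± 0.42 for white (adjusted p = 0.0231), comparisons that share the brown arrays. Both were lost without either brown array (2.39 and 2.41 for marrow-derived, 2.70 and 2.72 for white), the first also without the GFP array (2.04) and the second without white replicate 1 (2.18). Mmp24, a membrane MMP known mainly from neurons, lay between 9.52 and 10.38 on all arrays and was not called. This level rests on 1 of its 3 probe sets, since the others read 3.31 to 3.74 and 2.58 to 3.36, near the low end of the scale.

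**Figure D3:**
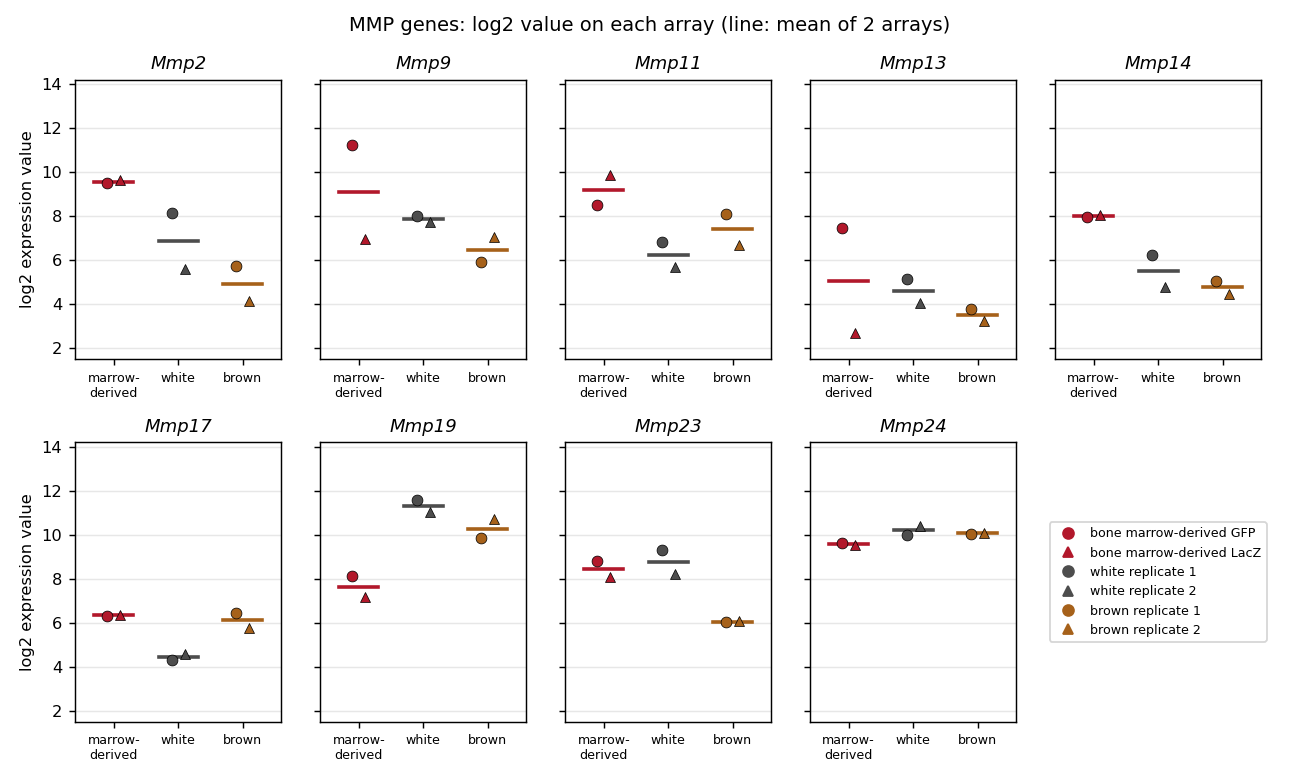
Log2 expression values of 9 MMP genes, 1 panel per gene, with 1 point per array and a line at each group's mean of 2 arrays. Mmp2 and Mmp14 are highest and Mmp19 lowest in bone marrow-derived arrays, Mmp23 is lowest in brown arrays, and Mmp9 and Mmp13 are high for GFP and not for LacZ.

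The MMPs that lie side by side on chromosome 9 had low values. Of the 7 measured here, Mmp1b, Mmp7, Mmp8, Mmp10 and Mmp20 read 2.44 to 3.74 on all 6 arrays, near the low end of the scale, and none of the 7 was called in any comparison. Mmp13, the main interstitial collagenase of rodents, and Mmp3 read higher. Mmp13 had its highest value on 1 array, with 7.44 for the GFP and 2.69 for the LacZ sample against 5.16 and 4.04 on the white and 3.79 and 3.22 on the brown arrays. Its difference from white was 0.47 ± 1.51 (adjusted p = 0.857), and it was -1.91 without the GFP array and 2.84 without the LacZ array. Mmp3, stromelysin-1, which activates other MMPs, had 5.93 and 7.05, 5.91 and 4.77, and 5.29 and 4.66 in the marrow-derived, white and brown arrays. Both marrow-derived values lay above the rest, by very little for the GFP array, and neither difference passed (1.15 ± 0.54 and 1.52 ± 0.54, adjusted p = 0.189 and 0.111).

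These neighbours also share promoter letters that the other genes of the family seldom have. The windows of 250 bases before to 50 bases after each RefSeq start (GRCm38.p6) were searched on both strands for 3 motifs: TGAGTCA, the site of the AP-1 factors Fos and Jun, TATAAA, the element that places the start of many regulated genes, and GGGCGG. Windows were at hand for 38 of the 67 genes. The AP-1 site was in 5 of the 7 chromosome 9 genes (Mmp1b, Mmp3, Mmp7, Mmp10 and Mmp13) and in 2 of the 31 other genes (Adam19 and Adam1b), beside 5.95% of all genes. The TATA box was in 7 of 7 and 4 of 31, beside 15.7%, and the GC box in 0 of 7 and 21 of 31, beside 38.2%. A match is a description of the letters and not a sign that a factor binds. The 250 bases before the start are given for Mmp3 (chr9:7445572-7445821) and Mmp13 (chr9:7272264-7272513), as the 2 of this row that read over 5 on any array, and for Mmp14 (chr14:54431348-54431597), which was called, all on the plus strand and 5′ to 3′, with matches of the 3 motifs in capitals.
Mmp3: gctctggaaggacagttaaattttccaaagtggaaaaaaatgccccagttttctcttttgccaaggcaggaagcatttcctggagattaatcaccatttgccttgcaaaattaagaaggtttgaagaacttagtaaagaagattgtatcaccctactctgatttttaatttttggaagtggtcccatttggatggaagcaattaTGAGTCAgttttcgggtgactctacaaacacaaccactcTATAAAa
Mmp13: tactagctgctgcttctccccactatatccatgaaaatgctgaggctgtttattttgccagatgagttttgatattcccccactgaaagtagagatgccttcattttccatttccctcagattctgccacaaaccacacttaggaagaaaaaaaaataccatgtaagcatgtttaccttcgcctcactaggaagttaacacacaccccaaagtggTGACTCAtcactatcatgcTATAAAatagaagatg
Mmp14: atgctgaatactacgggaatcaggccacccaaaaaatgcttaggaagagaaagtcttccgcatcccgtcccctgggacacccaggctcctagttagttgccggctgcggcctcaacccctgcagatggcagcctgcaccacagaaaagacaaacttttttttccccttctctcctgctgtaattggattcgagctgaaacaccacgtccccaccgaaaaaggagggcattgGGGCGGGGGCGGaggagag
The AP-1 site begins 46 bases before the start in Mmp3 and 35 bases before it in Mmp13, where it is on the minus strand, and a TATA box follows in each. Mmp14 has neither and holds a pair of adjoining GC boxes.

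The ADAMTS enzymes that cut the large proteoglycans aggrecan and versican included Adamts4 and Adamts5, which were called in opposite directions against white. Adamts4, aggrecanase-1, had 10.57 and 10.92 in marrow-derived, 8.17 and 7.73 in white and 7.32 and 8.08 in brown adipocytes. Both marrow-derived arrays were high and white and brown overlapped. It was 6.94-fold above white (2.80 ± 0.33, adjusted p = 0.00634) and 8.25-fold above brown (3.05 ± 0.33, adjusted p = 0.00601), and its second probe set gave 3.15 and 3.76. Adamts5, aggrecanase-2, had 10.10 and 9.65, 12.17 and 12.70, and 9.24 and 9.96. White was the high group while marrow-derived and brown overlapped. It was 5.89-fold lower in marrow-derived than in white (-2.56 ± 0.34, adjusted p = 0.00805) and 7.12-fold higher in white than in brown (2.83 ± 0.34, adjusted p = 0.014), and all 3 of its other probe sets had the same signs in both comparisons. The call between white and brown was lost without white replicate 2 (2.56), brown replicate 1 (2.47) or brown replicate 2 (3.19).

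Adamts15, a versican-cutting enzyme, was called in all 3 comparisons. Its values were 9.83 and 10.27 in marrow-derived, 7.98 and 7.44 in white and 6.46 and 6.09 in brown adipocytes, so the groups stood one above the other. Marrow-derived adipocytes were 5.04-fold above white (2.33 ± 0.28, adjusted p = 0.00682) and 13.7-fold above brown (3.77 ± 0.28, adjusted p = 0.00316), and white was 2.71-fold above brown (1.44 ± 0.28, adjusted p = 0.0404). The last of these was lost without any one white or brown array (1.17 to 1.71) and with the replicate number as a block. Adamts9, which cuts versican and lines blood vessels, had 11.58 and 11.74, 9.83 and 10.32, and 11.15 and 11.00, with white lowest. It was 2.99-fold above white (1.58 ± 0.22, adjusted p = 0.00895), while 0.59 ± 0.22 against brown did not pass (adjusted p = 0.125). Its 2 other probe sets gave larger differences, 3.4 and 2.51 against white and 1.66 and 1.24 against brown, the last with a limma p adjusted over all probe sets of 0.030. Adamts1, an early response enzyme that also restrains vessel growth, read 11.21 and 12.24, 10.69 and 11.30, and 10.99 and 10.77, where the marrow-derived and white arrays overlapped and no comparison passed (0.73 ± 0.40 against white, adjusted p = 0.247). Adamts8 and Adamts20 stayed at 1.89 to 2.75, at the low end of the scale.

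Of the other ADAMTS enzymes, Adamts12 and Adamts7, a related pair that cut cartilage oligomeric matrix protein, were higher in marrow-derived than in white adipocytes. Adamts12 had 9.78 and 10.07, 7.60 and 8.31, and 6.80 and 6.85 in the marrow-derived, white and brown arrays, 3.91-fold above white (1.97 ± 0.28, adjusted p = 0.00907) and 8.56-fold above brown (3.10 ± 0.28, adjusted p = 0.00407). The groups did not overlap, and the call against brown was lost without brown replicate 2 (3.12). Adamts7 had 5.65 and 6.71, 4.51 and 4.64, and 5.15 and 4.88, and was 3.04-fold above white (1.61 ± 0.37, adjusted p = 0.0307). That call was lost without any one white or brown array (1.54 to 1.67). Adamts10, which binds fibrillin microfibrils, was 1.75-fold above brown (0.81 ± 0.18, adjusted p = 0.036), the smallest difference among the genes called higher. It lost its call when the arrays were centred on their medians and without any one marrow-derived or brown array (0.75 to 0.86), with the replicate number as a block, and with the mean of its probe sets (0.55). Adamts19 was called lower in marrow-derived adipocytes against both groups, but its values of 2.81 to 4.88 lie in the lower part of the scale, and its call against white (-0.78 ± 0.17, adjusted p = 0.0252) was lost in all 6 fits that left out 1 array (-0.74 to -0.82). It was also lower in white than in brown (-1.17, adjusted p = 0.0186), a call lost without any one white or brown array (-1.05 to -1.29). Adamts3, which trims procollagen ends, read 3.64 to 4.93 and was not called.

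**Figure D4:**
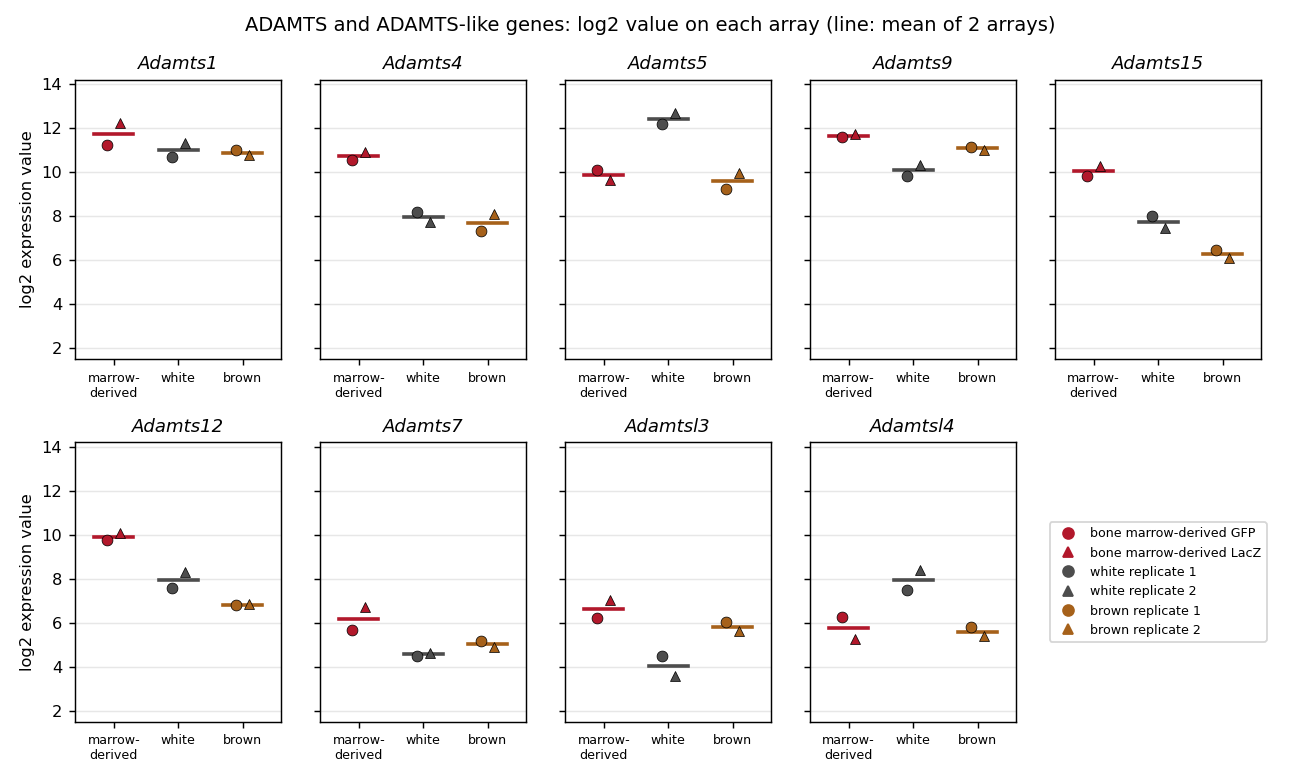
Log2 expression values of 7 ADAMTS and 2 ADAMTS-like genes, 1 panel per gene, with 1 point per array and a line at each group's mean of 2 arrays. Adamts4, Adamts12 and Adamts15 are highest in bone marrow-derived arrays, Adamts5 and Adamtsl4 are highest in white, and Adamts9 and Adamtsl3 are lowest in white.

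The ADAMTS-like proteins, which sit in the matrix beside fibrillin, had 1 gene higher and 1 lower than in white among the 5 measured, and 2 higher than in brown. These are 40% and 40% of a list of only 5, beside 25.8% and 20.4% of all genes called. Adamtsl3 had 6.22 and 7.04 in marrow-derived, 4.51 and 3.59 in white and 6.03 and 5.62 in brown adipocytes, with white below the rest. It was 5.99-fold above white (2.58 ± 0.42, adjusted p = 0.0129), a call lost without white replicate 2 (2.13). Adamtsl4, a fibrillin-binding protein needed to hold the eye lens, had 6.27 and 5.27, 7.50 and 8.39, and 5.79 and 5.38, with white above the rest. It was 4.51-fold lower in marrow-derived than in white (-2.17 ± 0.45, adjusted p = 0.0239) and 5.13-fold higher in white than in brown (2.36 ± 0.45, adjusted p = 0.0378). The first call was lost without LacZ (-1.68), without white replicate 2 (-1.73) or without a brown array (-2.17 each), and the second without any one white or brown array (1.91 to 2.80). Adamtsl1 was 5.99-fold above brown (2.58 ± 0.60, adjusted p = 0.0389), where GFP was 7.61 and LacZ 5.77. The call was lost without any one white or brown array (2.38 to 2.79). Its other probe sets gave -0.26 and 1.39 against brown, with limma p-values adjusted over all probe sets of 0.43 and 0.033. Adamtsl2, which binds a latent TGF-beta binding protein, had 3.51 for GFP and 5.94 for LacZ, the widest gap in that direction among the 67 genes, and was not called. The probe sets of Adamtsl5 disagreed: the one used was 1.44 ± 0.30 above brown (adjusted p = 0.0296), and the other gave 0.00 against brown. Against white the one used gave 1.06 ± 0.30 (adjusted p = 0.0559). The other gave -1.11 there, with a limma p adjusted over all probe sets of 0.016. The call of Adamtsl5 against brown was lost without any one marrow-derived or brown array (1.24 to 1.64) and with the mean of both probe sets (0.72).

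Of the 9 ADAM proteases grouped here as those of somatic (body) tissues, Adam15 and Adam19 were called, both against brown alone. Adam10, which cuts Notch and many receptors, lay between 10.83 and 11.50 on all arrays, with differences of 0.39 ± 0.21 from white (adjusted p = 0.235) and 0.32 ± 0.21 from brown (adjusted p = 0.333). Its probe sets disagreed, since another, at a lower level, gave 1.43 against white and 1.74 against brown, with limma p-values adjusted over all probe sets of 0.039 and 0.028. Adam17, which releases tumour necrosis factor, lay between 10.01 and 11.09, with 0.49 ± 0.32 (adjusted p = 0.334) and 0.76 ± 0.32 (adjusted p = 0.16). Adam9 and Adam12 were not called either. Against white adipocytes 0 of 9 ADAM proteases of this kind passed limma's adjusted test and 3 had an unadjusted p under 0.05, where 25.8% of all genes were called, and between white and brown 0 of 9 passed and 2 had such an unadjusted p, where 9.21% of all genes were called. Against brown the 2 called are 22.2% of the 9, near the 20.4% of all genes.

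Adam19, meltrin beta, was 7.91-fold higher in marrow-derived than in brown adipocytes (2.98 ± 0.47, adjusted p = 0.015). Its values were 9.50 and 9.71, 8.73 and 7.29, and 6.73 and 6.51 in the marrow-derived, white and brown arrays, so the groups stood one above the other. The call was lost without either brown array (3.09 and 2.87), and the difference from white, 1.59 ± 0.47, did not pass (adjusted p = 0.0619). Adam15, an ADAM of endothelial and epithelial junctions, was 2.07-fold above brown (1.05 ± 0.20, adjusted p = 0.0242). That call was lost when the arrays were centred on their medians and without the LacZ array (0.95) or either brown array (1.10 and 1.00), and 2 of its 3 other probe sets gave -0.46 and -0.94 against brown, so that the mean of all 4 gave 0.18 and no call. Adam8, a leukocyte ADAM, read 8.09 and 6.45, 10.60 and 7.71, and 7.21 and 5.65, and in each group the array with the higher Adam8 value also had the higher macrophage markers and the higher fibroblast and progenitor markers. Its difference from white was -1.89 ± 1.13 (adjusted p = 0.287).

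Adam11, Adam22 and Adam23 lack a working zinc site and act in adhesion and signalling of neurons, and of these 3 only Adam23 was called. It read 9.91 and 9.38 in marrow-derived, 10.09 and 9.52 in white and 8.43 and 8.19 in brown adipocytes, with brown below the rest, 1.34 ± 0.29 against marrow-derived (adjusted p = 0.0323) and 1.5 ± 0.29 against white (adjusted p = 0.0386). Its probe sets disagreed, since the other 2 gave 0.41 and -0.64 for marrow-derived against brown. The first of these gave -2.43 against white, where the one used gave -0.16 ± 0.29. Its limma p adjusted over all probe sets was 0.0060 there. Between white and brown these 2 gave 2.84 and -0.37, with limma p-values adjusted over all probe sets of 0.011 and 0.33. With the mean of all 3 probe sets of Adam23 the difference between marrow-derived and brown was 0.37 and was not called. The call against marrow-derived was lost without GFP (1.07) or either brown array (1.46 and 1.22), and that between white and brown without any one white or brown array (1.21 to 1.79). Adam22 had 8.96 and 8.69, 8.09 and 6.40, and 8.32 and 7.50 in the marrow-derived, white and brown arrays, and its difference from white was 1.58 ± 0.60 (adjusted p = 0.116).

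Of the 15 remaining ADAMs, most of them known from testis and epididymis, all but Adam4 (4.48 to 5.69) had a mean under 4 over the arrays. In all, 23 of the 67 genes had so low a mean, and 20 of these were called nowhere. Adam34 stood at 2.76 and 2.6 in marrow-derived, 3.10 and 3.28 in white and 4.90 and 4.17 in brown adipocytes, and was lower than in brown in both other groups (-1.85 ± 0.28, adjusted p = 0.0131, and -1.35 ± 0.28, adjusted p = 0.0452). The first call was lost without brown replicate 1 (-1.49) and the second in all 6 fits that left out 1 array (-0.98 to -1.71). Adam6b was 1.76-fold lower in marrow-derived than in brown (-0.82 ± 0.16, adjusted p = 0.0249), between values of 3.02 and 3.94, and lost its call without any one marrow-derived or brown array (-0.72 to -0.91). Adam7 had the largest difference from white in this set, -1.12 ± 0.37, and did not pass (adjusted p = 0.082).

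The partners and substrates of these enzymes, were read from separate lists, for which single genes were not refitted with arrays left out. Of 16 measured proteoglycans, collagens and other substrates 9 were higher and 0 lower in marrow-derived than in brown adipocytes, with a median of 1.60, where 8.71% and 11.7% of all genes were called and their median was 0.02. White was higher than brown for 5 and lower for 0, with a median of 1.08, beside 3.87% and 5.34% of all genes and a median of 0.02, and 0 differed between marrow-derived and white, with a median of 0.25 beside -0.07 over all genes, where 6 had an unadjusted limma p under 0.05. Among those called against brown the largest were the proteoglycan decorin, Dcn (3.83 ± 0.70, adjusted p = 0.021), and the collagen I chains Col1a2 (3.53 ± 0.38, adjusted p = 0.00626) and Col1a1 (2.68 ± 0.24, adjusted p = 0.00415). The fibroblast and progenitor markers share Dcn, Col1a1, Col3a1 and Lum with this list, and their part in these differences was not tested.

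Of 18 regulators of metalloproteinases 2 were higher and 2 lower than in white, 4 were higher and 2 lower than in brown, and white had 3 higher and 1 lower than brown. These are 22.2%, 33.3% and 22.2% of the list, beside 25.8%, 20.4% and 9.21% of all genes. Pcolce2, which enhances the trimming of procollagen, was lower in marrow-derived than in white (-3.84 ± 0.25, adjusted p = 0.00352) and higher in white than in brown (2.59 ± 0.25, adjusted p = 0.00986). Tspan15, a tetraspanin that carries ADAM10 to the cell surface, was higher than in white (1.89 ± 0.26, adjusted p = 0.00835). Pcsk6, a convertase that activates MMP and ADAMTS precursors, was lower than in white (-1.64 ± 0.33, adjusted p = 0.0226) and brown (-1.88 ± 0.33, adjusted p = 0.0199). Thrombospondin 1, Thbs1, which binds MMP2 and activates TGF-beta, was higher than in brown in marrow-derived (3.63 ± 0.26, adjusted p = 0.00272) and in white adipocytes (4.48 ± 0.26, adjusted p = 0.00472), and its relative Thbs2 likewise (1.52 ± 0.23, adjusted p = 0.0133, and 1.23 ± 0.23, adjusted p = 0.0356). Reck, a membrane-bound MMP inhibitor, had 7.37 and 8.05 in marrow-derived, 6.47 and 6.80 in white and 6.73 and 6.18 in brown adipocytes. Its difference from brown passed narrowly (1.26 ± 0.32, adjusted p = 0.0485), and that from white did not (1.08 ± 0.32, adjusted p = 0.0627).

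In the plasminogen system, which activates several MMPs, 2 of 8 measured genes were higher in marrow-derived than in white and 0 lower, and 0 passed against brown, where 1 had an unadjusted limma p under 0.05. The 2 are 25% of the list, near the 25.8% of all genes. Plat, tissue plasminogen activator, was 3.04 ± 0.43 above white (adjusted p = 0.00902), and Serpini1, a serpin that inhibits it, was 3.99 ± 0.55 above white (adjusted p = 0.00885) and lower in white than in brown (-2.75 ± 0.55, adjusted p = 0.0428). Of 14 other matrix proteases 1 was higher and 1 lower than in white, 3 were higher and 1 lower than in brown, and white had 4 higher and 0 lower than brown. These are 14.3%, 28.6% and 28.6% of the list, beside the 25.8%, 20.4% and 9.21% of all genes. The serine protease Htra3 was lower than in white (-2.55 ± 0.32, adjusted p = 0.00738) and brown (-1.55 ± 0.32, adjusted p = 0.0296). Fap, the protease of activated fibroblasts, was higher than in brown (2.74 ± 0.47, adjusted p = 0.0187). Ctsk, the collagen-cutting cathepsin K, was higher in white than in brown (4.30 ± 0.78, adjusted p = 0.0339).

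Gaps between the arrays of a group were common in the family. The GFP and LacZ arrays differed by at least 1 for 13 of the 67 genes (19.4%, beside 10.9% of all genes), the white arrays for 12 (17.9%, beside 8.24%) and the brown arrays for 4 (5.97%, beside 2.26%). The widest GFP to LacZ gaps were in Mmp13 (4.75) and Mmp9 (4.29), at the percentiles 99.94 and 99.83 of all genes. The macrophage, neutrophil and mesothelial markers differed between these arrays by 2.72, 1.38 and 2.01 in the same direction. Between the white arrays the macrophage markers differed by 1.63, Mmp13 by 1.12 and Mmp9 by only 0.26. Between the brown arrays these markers differed by 0.82 and Mmp13 by 0.57, while Mmp9 went the other way (-1.15). A link of Mmp9 or Mmp13 to these markers was not tested. The widest gap between the white arrays was in Adam8 (2.89), where the macrophage markers differed by 1.63. Over the 67 genes the root mean square difference was 1.05 between the GFP and LacZ arrays, 0.80 between the white and 0.53 between the brown arrays, and 1.26 to 1.74 between marrow-derived arrays and the others.

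**Figure D5:**
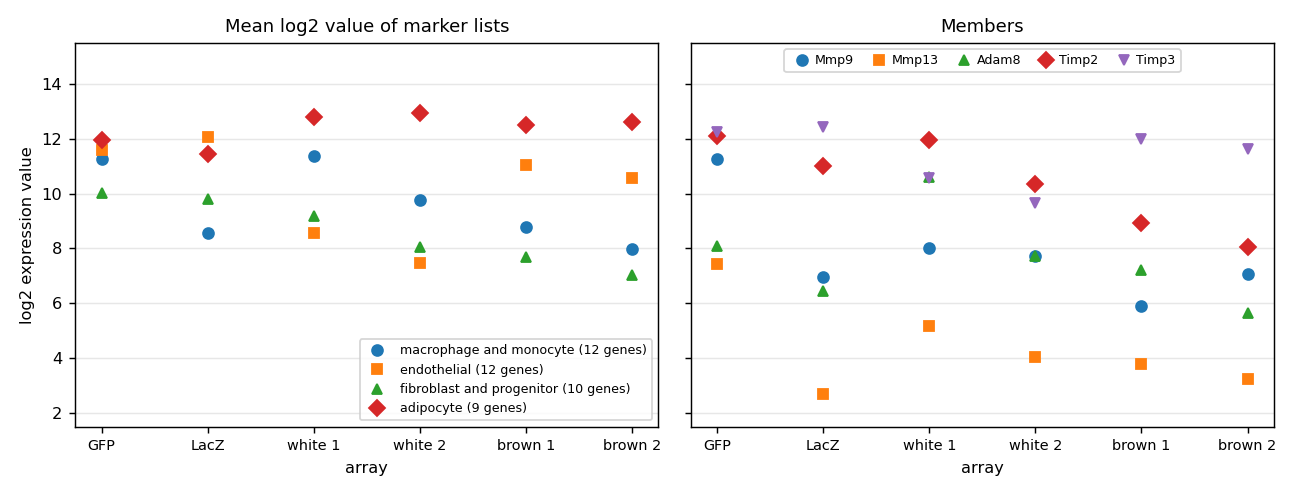
Left, mean log2 value of 4 marker lists on each array; right, log2 values of 5 genes of the family on the same arrays, each symbol being 1 list or gene on 1 array. Macrophage markers, Mmp9 and Mmp13 are high for GFP and lower for LacZ, while Timp3 and the endothelial markers are lowest on the white arrays. White replicate 1 has macrophage markers at 11.4, beside 11.3 for GFP, and Mmp9 at 8.0, beside 11.2 for GFP.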

How the data were processed

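RNA was amplified, labelled with biotin and hybridised to 1 array per sample, per the labels' protocols. The authors deposited 1 log2 value for each probe set and array; per the submitters' processing notes RMA and Partek were used, without a stated version or role. The log base was taken from the values. RMA gives no detection calls, and low values are compressed toward background. Of 43057 probe sets 33565 had 1 gene symbol, 857 several and 8635 none here. The probe set with the highest mean was used for each of 17720 genes. Group means of all 6 arrays were fitted with limma 3.58.1 in R 4.3.3 (3 residual and 2.35 prior degrees of freedom), with two-sided tests, and p was adjusted by Benjamini-Hochberg within each comparison across every gene. The fit was tested on simulated data. The members and gene lists were chosen with earlier results of these data known. Named genes are, in each comparison, the 10 called members with the largest difference in each direction, 13 members given always, the member with the largest difference of each role without a call, and up to 3 called genes of each partner list, with Reck; other genes were named after their values were seen. Alternatives were median centring, a filter on low values, the mean of a gene's probe sets, no moderation, an intensity trend, only the 4 arrays compared, a replicate block, and each array left out. Same-numbered arrays share only a number.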

Additional observations from a re-analysis of the deposited data

How the results depend on the processing

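With 2 arrays per group, precision was limited by the number of arrays. Marrow-derived against white called 0 higher and 0 lower in the ordinary linear model. With only the 4 arrays compared it called 7 higher and 3 lower, beside 1355 and 1372 of all genes. It called 7 to 12 higher and 3 to 4 lower with 1 array left out. Marrow-derived against brown called 9 higher and 1 lower after the filter on low values, which kept 24 of the 67 genes, 2 and 2 in the ordinary model, and 2 to 13 and 1 to 4 with 1 array left out. White against brown called 5 higher and 2 lower after that filter, and 0 and 0 in the ordinary model. It called 0 to 8 and 0 to 4 with 1 array left out. With the replicate number as a block it called 6 higher and 2 lower, beside 624 and 640 of all genes. The block lost 1, 1 and 4 calls in the 3 comparisons. Deviations of same-numbered arrays correlated across genes at 0.21, -0.004 and 0.28, so the numbers were not taken as pairs. With the mean of all probe sets of a gene Timp2 turned to -0.16 against white and Adamts5 to -0.050 against brown, both uncalled. With 1 array left out uncalled differences turned sign against white for Timp2 (-0.37 to 1.22), Timp4 (-0.15 to 0.10), Mmp9 (-0.91 to 3.37), Mmp13 (-1.91 to 2.84) and Adamts3 (-0.67 to 0.63). They turned against brown for Mmp13 (-0.82 to 3.93), Adamts3 (-0.83 to 0.47) and Adamts5 (-0.088 to 0.63), and between white and brown for Mmp3 (-0.20 to 0.94), Adam17 (-0.17 to 0.72), Adam10 (-0.28 to 0.13), Adamts1 (-0.19 to 0.43) and Adamts4 (-0.13 to 0.63). Over all genes the ordinary model called 254 higher and 301 lower, 296 and 665, and 0 and 0 in the 3 comparisons, beside 2170 and 2409, 1543 and 2068, and 686 and 946; without white replicate 2 marrow-derived against white called 899 and 850, and median centring moved the share called higher there from 47.4% to 36.6%. Beyond the arrays left out, the cause was not tested.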

Other observations

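Membrane proteins that ADAM enzymes release were looked at as a further list. Of 18 measured, 6 were higher and 2 lower in marrow-derived cells than in white, 2 were higher and 1 lower than in brown, and white had 1 higher and 4 lower than brown. These are 44.4%, 16.7% and 27.8% of the list, beside 25.8%, 20.4% and 9.21% of all genes. Betacellulin, Btc, a growth factor of the EGF family, had the largest difference against both groups: it was lower than in white (-5.13 ± 0.32, adjusted p = 0.00352) and than in brown (-4.27 ± 0.32, adjusted p = 0.003). The cadherins Cdh5, of endothelium, and Cdh2, of neural and muscle cells, were higher than in white (4.51 ± 0.45, adjusted p = 0.00474, and 3.77 ± 0.59, adjusted p = 0.0116) and lower in white than in brown (-2.99 ± 0.45, adjusted p = 0.0214, and -4.43 ± 0.59, adjusted p = 0.0167). Epiregulin, Ereg, of the same growth factor family, was lower than in white (-3.39 ± 0.45, adjusted p = 0.00803) and higher in white than in brown (2.66 ± 0.45, adjusted p = 0.028). Notch1, a receptor that ADAM10 cuts, was higher than in white (1.79 ± 0.21, adjusted p = 0.00632) and brown (0.87 ± 0.21, adjusted p = 0.04). Cdh5 is also one of the endothelial markers.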
